A study of Drosophila melanogaster with 4 samples.

Results

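3LHet and 3RHet are the heterochromatic scaffolds of chromosome 3 in the fly genome assembly, kept apart from the arm sequences 3L and 3R. They were examined for histone H3 trimethylated at lysine 9 (H3K9me3), mapped by chromatin immunoprecipitation and sequencing (ChIP-seq) in embryos of Drosophila melanogaster. Clusters, the regions that the authors called significantly enriched, were taken by sequence name alone. Of the 3941 clusters in the list made for the whole series, 266 lay on these scaffolds, 145 on 3LHet and 121 on 3RHet. The list of replicate 1 held 158 on 3LHet and 122 on 3RHet, and that of replicate 2 held 160 on 3LHet and 149 on 3RHet. All libraries came from the wild-type strain Oregon-R-modENCODE at 14 to 16 h of embryonic age, with 2 ChIP libraries and an input library for each. Whole embryos mix many cell types, so an uncovered stretch may be marked in a minority of cells. Nothing in the labels says that the libraries came from separate collections, so the spread between them may be technical.

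Pericentric heterochromatin flanks the centromeres and is rich in transposable elements and satellite repeats. H3K9me3 is deposited there by methyltransferases of the Su(var)3-9 and SETDB1 (eggless) type and is bound by Heterochromatin Protein 1, which helps to spread and maintain the silent state. In the fly, some essential genes nevertheless reside in heterochromatin and are expressed from within it. All positions below are on FlyBase release 5. Genes of that release were not used here, so clusters and gaps are given by position and no gene is named.

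The first question was how much of each scaffold the mark covered. Most of both scaffolds was covered, 3LHet more widely than 3RHet in every list. On 3LHet, 2.56 Mb long, clusters spanned 81.4% and 79.1% of the bases in replicates 1 and 2, and 85.7% in the series-wide list. On 3RHet, 2.52 Mb long, they spanned 74.8%, 72.7% and 79.6% in the same lists. The difference, 3LHet minus 3RHet, was 6.68 percentage points in replicate 1 and 6.43 in replicate 2 (mean 6.56 ± 0.172, SD, n = 2), far more than the libraries differed from each other in it. Each scaffold is a single sequence, and an exact test on 2 paired libraries cannot go below p = 0.5, so no test between the scaffolds was made. The depth behind the clusters is unknown.

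The scaffolds differed more in how the uncovered bases were distributed than in how many there were. Uncovered stretches between clusters, called gaps here, were mostly short on both, with a median of 1303 bp in replicate 1 and 1591 bp in replicate 2 on 3LHet, against 1716 bp and 1524 bp on 3RHet. Gaps of 10 kb or more were few: 9 in replicate 1 and 12 in replicate 2 on 3LHet, against 13 in each library on 3RHet. A length of 20 kb was reached by 2 gaps in replicate 1 and 3 in replicate 2 on 3LHet, against 8 and 9 on 3RHet. Together, gaps of at least 10 kb took up 6.33% of 3LHet in replicate 1 and 8.09% in replicate 2, against 15.8% and 16.3% of 3RHet. The difference was -8.85 ± 0.863 percentage points (SD, n = 2). Of all uncovered bases, these gaps held 34.1% and 38.8% on 3LHet, against 62.6% and 59.8% on 3RHet.

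Shorter gaps ran the other way. Those under 10 kb took up 12.2% of 3LHet in replicate 1 and 12.8% in replicate 2, against 9.45% and 11.0% of 3RHet. With gaps of 10 kb or more set aside, 86.9% and 86.1% of 3LHet were covered, against 88.8% and 86.9% of 3RHet. This difference, -1.32 ± 0.741 percentage points (SD, n = 2), has the opposite sign to that over the whole scaffolds. It was small, and with only clusters of at least 2 kb it came to -0.322 points, positive in replicate 2. The difference in long gaps was thus larger than the whole difference in coverage between the scaffolds. Set beside the chromosome 2 scaffolds without a test, gaps of 10 kb or more took up 7.21% ± 1.24 of 3LHet and 16.1% ± 0.381 of 3RHet, against 22.0% ± 0.843 of 2LHet and 19.4% ± 0.558 of 2RHet (SD, n = 2 each). Outside such gaps the covered share was 86.5% ± 0.585 on 3LHet and 87.8% ± 1.33 on 3RHet, against 83.9% ± 3.53 on 2LHet and 85.9% ± 1.07 on 2RHet. Of these 4 scaffolds 3LHet thus had the smallest share in long gaps, while coverage outside them differed by a few points.

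**Figure D1:**
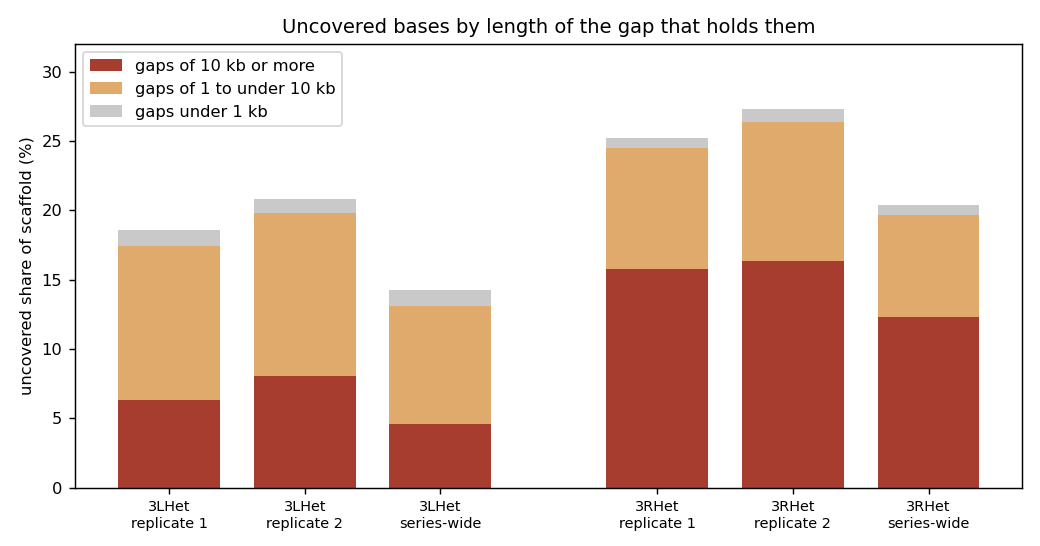
Bars give the share of each scaffold (%) left uncovered in each list, divided by the length of the gap that holds the bases. Gaps of 10 kb or more, at the foot of each bar, reach 6.33% and 8.09% in the libraries on 3LHet and 15.8% and 16.3% on 3RHet, while the shorter classes are somewhat taller on 3LHet.

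Gaps were next followed across the lists. Stretches uncovered in all 3 lists numbered 145 on 3LHet and 117 on 3RHet, and 6 and 9 of these reached 10 kb. Those of 10 kb or more held 4.60% of 3LHet and 11.6% of 3RHet. Stretches common to all lists cannot hold more than the gaps of any single list, so the larger shares in the libraries do not measure disagreement. In the series-wide list, the most widely covered, gaps of that length held 4.60% of 3LHet and 12.3% of 3RHet. On 3LHet the longest ran from 2328330 to 2373628 (45299 bp), followed by 1457295 to 1480615 (23321 bp) and 1909427 to 1923152 (13726 bp). On 3RHet the longest ran from 448956 to 520954 (71999 bp), followed by 2376075 to 2439586 (63512 bp) and 317156 to 366638 (49483 bp). The 3 longest summed to 3.22% of 3LHet and 7.35% of 3RHet. In the libraries the second of those on 3RHet was its longest gap, at 81130 bp in replicate 1 and 81861 bp in replicate 2, as the series-wide list has short clusters within that stretch where the libraries have none. None of the 15 stretches touched a scaffold end. Release 5 scaffolds may hold unsequenced or poorly mappable bases, which lists of clusters do not show, and their part in these gaps was not tested.

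Some long gaps had sharp borders next to strongly scored clusters. For the 13116 bp gap of 3LHet at 518034 to 531149, the borders of the 3 lists lay within 26 bp of each other, and the clusters on either side scored between 2.82 and 3.17. At 1457295 to 1480615 on 3LHet they lay within 405 bp, with flanking scores of 2.98 to 3.42. Across the lists, both borders agreed to within 500 bp for 3 of the 6 long gaps on 3LHet and for 1 of the 9 on 3RHet. On 3RHet the sharpest was at 950397 to 967914, with borders within 178 bp and flanking scores of 2.45 to 2.97. Flanking clusters had a median score of at least 2 at 5 of the 6 gaps on 3LHet and 7 of the 9 on 3RHet. The other 2 on 3RHet, at 2376075 to 2439586 and 2473253 to 2488603, were bordered by weak clusters, scored 0.39 to 1.58 and 0.54 to 0.98. Their borders moved by up to 14617 bp and 16674 bp between lists.

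Along the scaffolds, coverage of 3LHet was fairly even and that of 3RHet was not. In 26 windows of 100 kb (the last one shorter), the covered share on 3LHet ran between 49.6% and 97.7% in replicate 1 and between 49.2% and 97.4% in replicate 2. On 3RHet it ran between 5.91% and 99.6% in replicate 1 and between 3.73% and 98.7% in replicate 2. The medians were close, at 83.5% and 79.8% on 3LHet against 82.3% and 80.3% on 3RHet, while the SD over windows was 11.4 and 12.6 points against 25.3 and 25.2 points. One window of 3LHet lay below 50% in each library, that of 2300001 to 2400000, which holds the longest gap. On 3RHet 4 windows did, between 300001 and 500000 and beyond 2400001. The fullest window of all, 1500001 to 1600000 on 3RHet, was covered to 99.6% in replicate 1 and 98.7% in replicate 2.

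**Figure D2:**
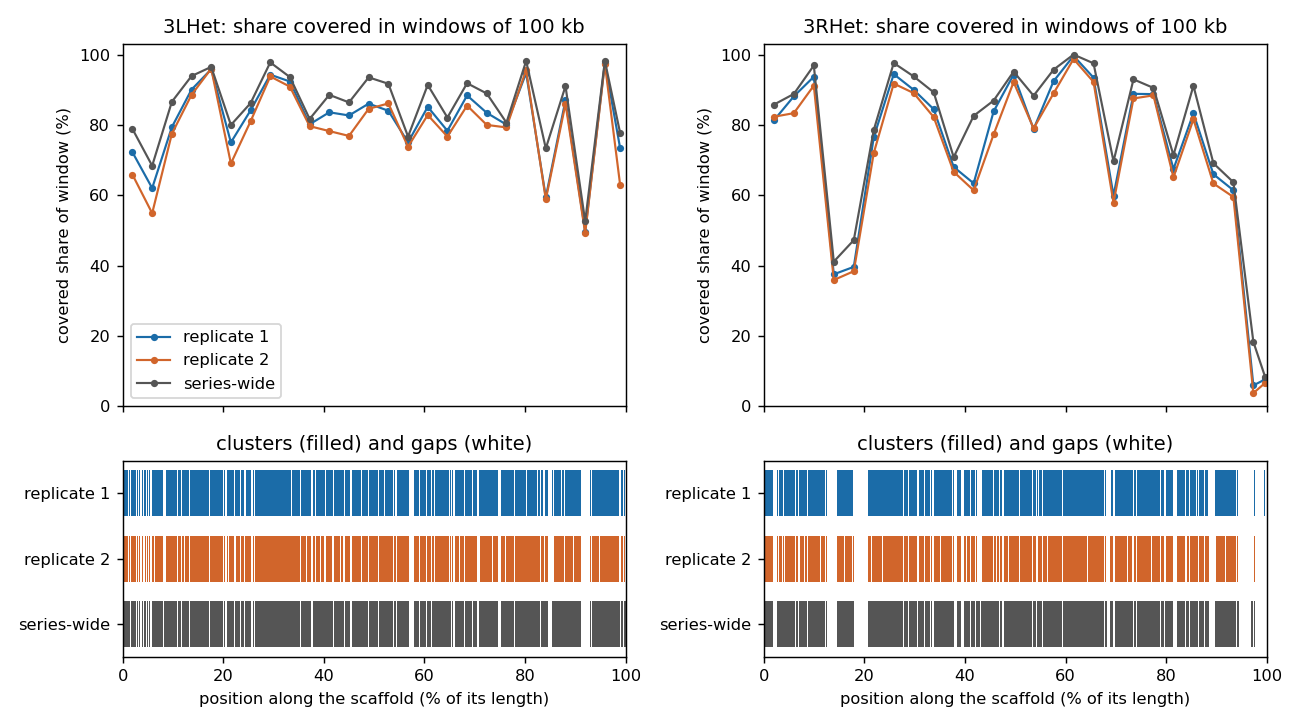
The upper panels give the covered share (%) of windows of 100 kb along 3LHet and 3RHet, by position in % of scaffold length, for each list, and the lower panels draw every cluster as a filled block. On 3LHet the libraries drop just below 50% in 1 window, whereas on 3RHet every line drops below 50% in 4 windows, an early pair and a pair at the high end.

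Divided into 4 parts of equal length, 3LHet was covered from the first part to the last to 77.8% ± 2.75, 84.4% ± 1.82, 81.4% ± 1.02 and 77.6% ± 0.887 (SD, n = 2 each). The parts of 3RHet were covered to 69.7% ± 1.58, 79.9% ± 1.91, 84.9% ± 1.03 and 60.4% ± 1.27. The mean of 3LHet was thus lower in the third part and higher in the others. Common gaps of at least 10 kb summed to 13.1, 10.5, 48.6 and 45.3 kb in the parts of 3LHet, from first to last. On 3RHet the sums were 121.5 kb in the first part and 121.8 kb in the last, but 31.7 kb and 16.6 kb in the second and the third.

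The high-coordinate ends of the scaffolds were very different, and that of 3RHet was almost bare. The last 150 kb of 3LHet was covered to 88.6% in replicate 1 and 84.5% in replicate 2, and its less covered end was the first 150 kb, at 61.4% and 55.9%. At the low-coordinate end the order was reversed, as the first 150 kb of 3RHet was covered to 87.1% and 85.4%. The last 150 kb of 3RHet was covered to 6.64% and 4.97% in replicates 1 and 2 and to 16.3% in the series-wide list, while the remainder of 3RHet was covered to 79.1%, 77.0% and 83.6%. Clusters in this end of 3RHet were few and weak, 4 in each library with a median score of 0.83 in replicate 1 and 0.96 in replicate 2, against 2.51 and 2.36 in the remainder. Leaving out the last 150 kb of 3RHet lowered the difference in coverage, 3LHet minus 3RHet, to 2.25 ± 0.155 percentage points, and that in gaps of 10 kb or more to -4.00 ± 0.915 (SD, n = 2). This stretch was picked for its low coverage and nothing was left out of 3LHet, so a smaller difference in coverage was bound to follow. The arm sequences differed in the order of the last 150 kb of the scaffolds, opposite to that of the first 150 kb. The 150 kb of arm 3L nearest the centromere was covered to 90.6% and 88.3% and that of arm 3R to 5.30% and 5.69%. The files do not say which scaffold end faces an arm.

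Domain length depended on the measure and on the library. Median lengths on 3LHet were 8736 bp in replicate 1 and 8753 bp in replicate 2, against 9041.5 bp and 7897 bp on 3RHet. The ratio, 3LHet over 3RHet, was 0.966 in replicate 1 and 1.11 in replicate 2, so the medians gave no common order. The 25th percentile was higher on 3LHet in both, at 4342 bp and 4888 bp, against 2860.5 bp and 2651 bp on 3RHet, while the 75th had no common order, at 18100 bp and 17639 bp against 21437 bp and 14788 bp. Clusters under 2 kb gave none either, with 13 and 11 on 3LHet against 11 and 21 on 3RHet.

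At the long end the order of the counts depended on the length chosen. Clusters of 20 kb or more were more numerous on 3LHet, with 34 and 32 in replicates 1 and 2 and 42 in the series-wide list, against 33, 25 and 33 on 3RHet. The longest cluster was also longer on 3LHet, at 92329, 87025 and 98251 bp in the same lists, against 85002, 60952 and 95091 bp on 3RHet. Clusters of 50 kb or more were fewer on 3LHet, with 4 in each library, against 8 in replicate 1 and 6 in replicate 2 on 3RHet. These last held 13.9% and 13.0% of the covered bases of 3LHet, against 25.2% and 18.1% of those of 3RHet. By share of covered bases, clusters of 20 kb or more gave the same order. They held 53.1% and 49.6% on 3LHet, against 66.5% and 51.9% on 3RHet. The cluster length at which longer clusters hold 50% of the covered bases was 20365 bp and 19416 bp on 3LHet, against 28308 bp and 20396 bp on 3RHet. The ratio of these lengths was 0.836 ± 0.164 (SD, n = 2). With all clusters kept it rested mostly on replicate 1, at 0.719, and was 0.952 in replicate 2. With only clusters scored at or above their list's median it was 0.788 and 0.721.

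**Figure D3:**
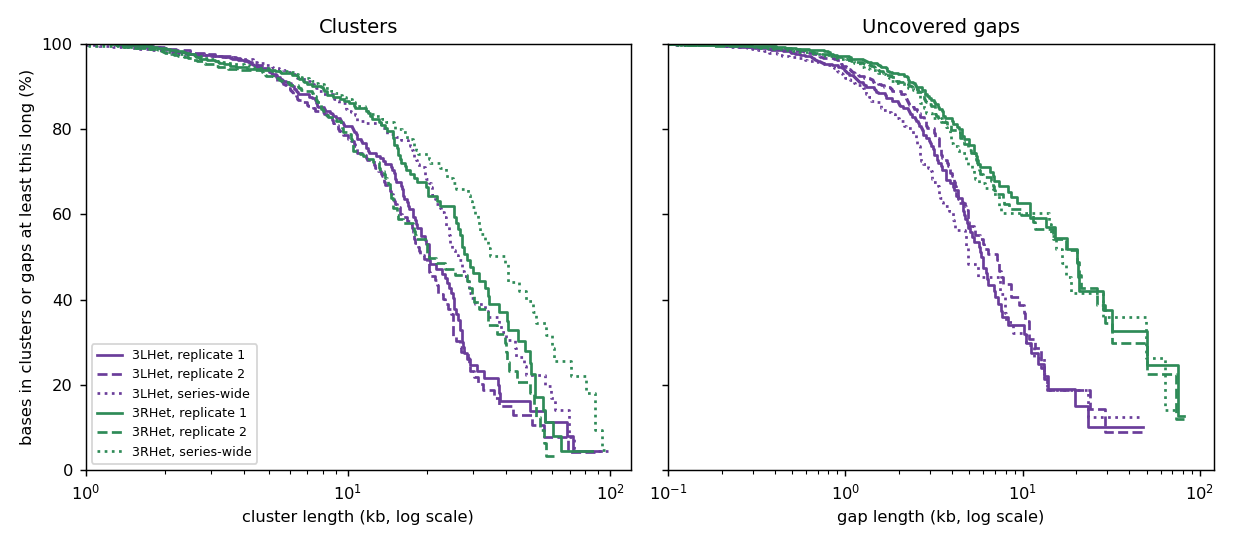
Curves give the percentage of covered bases (left) or uncovered bases (right) that lie in clusters or gaps at least as long as the value on the x axis (kb, log scale), for both scaffolds in each list. Gaps of 10 kb or more hold 34.1% and 38.8% of the uncovered bases of 3LHet in the libraries, against 62.6% and 59.8% on 3RHet, whose gap curves lie further right for longer gaps, while the cluster curves of replicate 2 run close together up to about the 20 kb mark.

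Most of the 3 longest series-wide clusters per scaffold were broken up in at least 1 library, into more pieces on 3RHet. On 3LHet the longest, at 342592 to 440842 (98251 bp, score 2.74), contained 2 clusters of replicate 1, the longer of 92329 bp, and 3 of replicate 2. The next, at 734729 to 807670 (72942 bp, 2.54), contained 1 cluster of replicate 1 and 2 of replicate 2, and the third, at 1587349 to 1657050 (69702 bp, 2.95), was a single cluster in both. On 3RHet the longest, at 600681 to 695771 (95091 bp, 2.95), contained 3 clusters of replicate 1 and 4 of replicate 2. Those at 1496149 to 1588841 (92693 bp, 3.06) and 219054 to 306329 (87276 bp, 2.63) contained 3 clusters of replicate 1 and 5 of replicate 2 each. The breaks were narrow: each library covered at least 92.7% of the bases in each of the 6 regions.

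The libraries themselves overlapped closely. Bases covered in both made up a share of 0.946 of those covered in either (the Jaccard index) on 3LHet and 0.936 on 3RHet. Of the replicate 1 clusters, 143 of 158 on 3LHet and 114 of 122 on 3RHet overlapped replicate 2 by at least 1 bp, that is 90.5% and 93.4%, against 85.0% over the whole list. Of the replicate 2 clusters, 158 of 160 on 3LHet and 143 of 149 on 3RHet overlapped replicate 1, that is 98.8% and 96.0%, against 89.8% over the whole list. The shares on the chromosome 2 scaffolds were similar, at 91.7% and 96.3% on 2LHet and 92.9% and 97.4% on 2RHet for replicates 1 and 2. Wide coverage by itself makes such overlaps likely. No cluster had the same start and end in both. Where 1 cluster met exactly 1 other, in 108 pairs on 3LHet and 62 on 3RHet, starts lay a median of 120 bp apart on either scaffold and ends 100.5 bp and 140.5 bp apart. On 3RHet 32 clusters of replicate 1 were split into 2 or more in replicate 2, into 6 at most. On 3LHet 23 were split, into 3 at most. Splitting also went the other way, as 14 clusters of replicate 2 on 3RHet and 10 on 3LHet overlapped 2 or more of replicate 1.

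The authors' score, column 6 of the lists, was compared within each list. Its scale is not stated, and its values are logarithm-like, so only differences are given. The median was slightly higher on 3LHet, at 2.61 in replicate 1 and 2.49 in replicate 2, against 2.49 and 2.34 on 3RHet. The difference of 0.13 ± 0.02 (SD, n = 2) was small beside the interquartile range of single clusters, at 0.96 and 1.02 on 3LHet and 0.81 and 1.00 on 3RHet. In the series-wide list it was 0.02 (2.41 on 3LHet and 2.39 on 3RHet). The 75th percentile differed more, at 2.99 and 3.05 on 3LHet against 2.84 and 2.70 on 3RHet. Clusters scored under 1 were rare on both scaffolds: 6 in replicate 1 and 8 in replicate 2 on 3LHet, or 3.80% and 5.00%, against 5 and 9 on 3RHet, or 4.10% and 6.04%. Over the whole lists 20.3% of replicate 1 clusters and 20.9% of replicate 2 clusters scored under 1. The chromosome 2 scaffolds also had few, at 8.33% and 0% on 2LHet and 4.35% and 3.06% on 2RHet, so this was not particular to chromosome 3. In the series-wide list 15 on 3LHet and 15 on 3RHet did, or 10.3% and 12.4%, against 41.0% of all its clusters.

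Long clusters tended to score higher, more clearly on 3RHet. Across clusters, Spearman's rho of length and score was 0.34 in replicate 1 and 0.33 in replicate 2 on 3LHet, against 0.53 and 0.54 on 3RHet. These are descriptions over 158 and 160 clusters of 3LHet and 122 and 149 of 3RHet, which share their library and are not independent. Clusters of 20 kb or more had a median score of 2.80 and 2.83 on 3LHet, against 2.73 and 2.68 on 3RHet. Clusters under 2 kb, 11 to 21 per scaffold and library, had 1.52 and 1.17 on 3LHet, and 1.52 and 1.17 on 3RHet as well. In the series-wide list their medians differed, at 1.32 over 26 clusters of 3LHet and 1.00 over 24 of 3RHet. There rho was 0.48 on 3LHet and 0.50 on 3RHet, so the contrast in rho between the scaffolds was not seen.

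**Figure D4:**
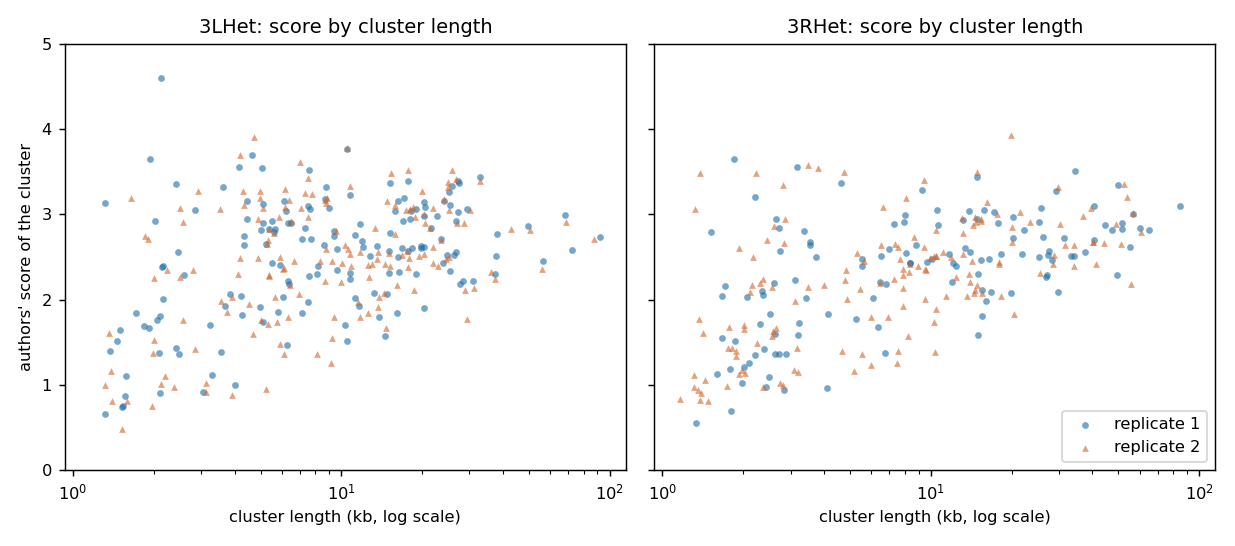
Each point is a cluster of replicate 1 (circles) or replicate 2 (triangles), with its length (kb, log scale) on the x axis and the authors' score on the y axis, for 3LHet (left) and 3RHet (right). Long clusters of both scaffolds score mostly between 2 and 3.5, and low scores gather among the short clusters, with a rho of 0.34 and 0.33 on 3LHet and of 0.53 and 0.54 on 3RHet.

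In the series-wide list the highest scores did not belong to the longest domains. On 3LHet the top clusters of the series-wide list were at 1510022 to 1514795 (4774 bp, score 3.81), 1164706 to 1169038 (4333 bp, 3.64) and 1171684 to 1215440 (43757 bp, 3.41). The top 2 were each found as 1 cluster in both libraries, scored 3.70 in replicate 1 and 3.90 in replicate 2 for the first and 3.55 and 3.70 for the second. On 3RHet the top cluster, at 1656256 to 1661248 (4993 bp, 3.83), was covered to 37.1% in replicate 1 and 75.9% in replicate 2, with scores of 3.65 and 3.55. The next, at 1074154 to 1075154 (1001 bp) and 1080459 to 1082575 (2117 bp), shared the score of 3.80 and were covered in neither library. They lie in the window of 1000001 to 1100000, where the series-wide list added most, with 82.6% covered against 63.4% in replicate 1 and 61.4% in replicate 2. Scores shared between clusters occurred for 5 series-wide clusters of 3RHet and 4 of 3LHet. With depth unknown, the reads behind clusters this short are not known, so their rank is uncertain. In replicates 1 and 2 the highest scores were 4.61 and 3.90 on 3LHet, against 3.65 and 3.94 on 3RHet.

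The series-wide list otherwise widened both scaffolds by similar amounts. Bases covered there and in neither library made up 3.32% of 3LHet and 3.55% of 3RHet. Of its clusters, 113 of 145 on 3LHet (77.9%) and 86 of 121 on 3RHet (71.1%) overlapped both libraries, against 61.1% over the whole list. Those that overlapped neither numbered 21 on 3LHet (14.5%) and 24 on 3RHet (19.8%), against 20.1% over the whole list. They had a median of 1183 bp and a score of 1.37 on 3LHet, and of 1617 bp and 1.75 on 3RHet. On 2LHet and 2RHet, 90.9% and 79.7% of the series-wide clusters overlapped both libraries, and 0% and 11.1% overlapped neither. Bases uncovered in all 3 lists made up 14.2% of 3LHet and 20.3% of 3RHet.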

How the data were processed

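H3K9me3 ChIP-seq clusters came as 1 list for each of 2 ChIP libraries and 1 list for the set of replicates; how the last was made is not stated. The input libraries were not analysed here. The aligner was Bowtie, version 0.12.7 by the submitters' processing notes, and the build is FlyBase release 5, as the file headers state. Cluster caller, threshold, read filters and depth: none is given in the sources used here, so no counting interval is given. Per the labels' protocols, crosslinking was in 1.8% formaldehyde.

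Each cluster has a position and a score, as the authors deposited them, and the scale of the score is not stated. In replicate 1, 628 of 2726 distinct scores differ from another by a whole number to 9 decimals, in replicate 2 666 of 2815 and in the series-wide list 501 of 3343. None differ by whole multiples of the natural or base-10 logarithm of 2. Such steps arise where values are base-2 logarithms of ratios; scores were used within a list only, as differences.

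Python 3.11.15, numpy 2.4.6 and scipy 1.17.1 were used, with functions checked on simulated data. Lengths come from the file headers. On 3RHet a cluster of replicate 2 and one of the series-wide list ran past the end, by 346 bp and 816 bp, and were cut there. Means ± SD are over the 2 ChIP libraries. Regions named are, per scaffold, the 3 longest and the 3 highest-scoring series-wide clusters and the 3 longest stretches uncovered in all lists; further gaps, windows and the last 150 kb of 3RHet were picked after their values were seen. The scaffolds and measures were chosen with earlier results of these data known. Alternatives were a score limit (the list's median), a 2 kb minimum length, joining within 1 kb, the series-wide list, other gap limits, end gaps left out and each library alone; setting aside long gaps and the last 150 kb was added later.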

Additional observations from a re-analysis of the deposited data

How the results depend on the processing

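No paired analysis was possible because, between ChIP and input libraries, no values of the inputs were analysed here, and no result comes from a test. Differences between the scaffolds were taken within each ChIP library, which pairs the scaffolds by library. The larger coverage of 3LHet and the larger share of 3RHet in long gaps kept their direction under each alternative run. The difference in coverage was 4.40 percentage points when only clusters scored at or above their list's median were kept, 6.83 with clusters of at least 2 kb, 6.86 with clusters joined within 1 kb, 6.15 in the series-wide list (6.12 there with at least 2 kb) and 2.25 without the last 150 kb of 3RHet. That in gaps of 10 kb or more was -5.96 points with the score limit, -7.73 in the series-wide list and -4.00 without that stretch; for gaps of 20 kb or more it was -10.2. Outside long gaps, the difference in coverage was -0.322 points with clusters of at least 2 kb and -2.26 when only gaps of 20 kb or more were set aside.

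The ratio of median cluster lengths, 1.04 ± 0.101, held no direction. It was 0.883 with the score limit, 0.939 with at least 2 kb, 0.995 without the last 150 kb of 3RHet, 1.32 after joining, 1.18 in the series-wide list and 0.966 to 1.11 in single libraries. The ratio of length-weighted medians stayed below 1 under each alternative run. It was 0.754 with the score limit, 0.824 with at least 2 kb, 0.782 after joining and 0.660 in the series-wide list. In replicate 2 alone it was 0.755 after joining, but 0.929 with at least 2 kb. The difference in gaps per Mb, 8.59 ± 6.75, ran from 3.82 to 13.4 in single libraries. That in median score was 0.17 with the score limit, 0.0211 in the series-wide list and 0.0556 there with at least 2 kb. The Jaccard index on 3LHet and 3RHet was 0.894 and 0.891 with the score limit, 0.949 and 0.933 with at least 2 kb and 0.947 and 0.943 after joining. The cause of these shifts was not tested. Unknown depth and unmeasured sequence gaps limit what an uncovered stretch shows.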

Other observations

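The series-wide list added coverage unevenly along the scaffolds. After the 3RHet window already given, it added most at 2100001 to 2200000 on 3LHet, with 73.3% covered, against 59.4% in replicate 1 and 58.8% in replicate 2. At 2400001 to 2500000 on 3RHet it covered 18.3%, against 5.91% and 3.73%. In these windows 5 and 7 of its clusters overlapped neither library, with scores of 0.65 to 2.89 and 0.39 to 3.06. How the replicates were combined is not stated, and no depth is given with which to compare the lists.

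One-to-one pairs of clusters scored higher in replicate 1 than in replicate 2 in 67 of 108 cases on 3LHet and 43 of 62 on 3RHet, by a median of 0.05 and 0.07. Over these pairs the scores had a Spearman's rho of 0.92 on 3LHet and 0.94 on 3RHet, as a description across clusters of the same libraries.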
